A study of Homo sapiens with 6 samples.

Results

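The aminoacyl-tRNA synthetases, the enzymes that load each tRNA with its amino acid, were examined with their scaffold genes in HEK293T cells made to overexpress PRMT1. The 39 genes were chosen by name from the 57500 Ensembl gene identifiers of the table: 19 cytosolic synthetases, 16 mitochondrial synthetases and 4 scaffold or accessory genes. TARS3, a further threonyl-tRNA synthetase gene, is counted with the tRNA delivery genes, and other synthetase genes were not analysed here. HEK293T is an established human embryonic kidney line. The PRMT1-OV group holds 3 libraries of cells that received, with the PolyJet reagent, a pcDNA3 plasmid carrying PRMT1, the main enzyme of asymmetric arginine dimethylation. The Mock group holds 3 libraries of WT cells with the treatment label Vector Control. The protocol names transfection for the PRMT1 condition, and whether the Mock cells received an empty plasmid is not given. Both groups share the same medium and serum, and the title of the study concerns how acetylation and ubiquitination set the amount of PRMT1. The comparison asks which transcripts differ once PRMT1 is raised.

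In the cytosol, some synthetases work alone and others sit in the multisynthetase complex, which the scaffold proteins AIMP1, AIMP2 and EEF1E1 (also called AIMP3) hold together. Mitochondria use a separate set of enzymes, also encoded in the nucleus, to load the tRNAs that serve translation of the respiratory chain subunits made inside the organelle. When uncharged tRNA accumulates, the kinase GCN2 phosphorylates eIF2, translation of the transcription factor ATF4 rises, and ATF4 switches on amino acid transport, amino acid synthesis and many cytosolic synthetase genes.

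PolyA-selected RNA was sequenced and deposited as TPM, transcript levels per length scaled to a total of 1000000 per library. Between 19873531 and 23162292 reads per PRMT1-OV library and between 18195857 and 20423378 per Mock library could be recovered from the values. PRMT1 itself was at 71656, 62895 and 84923 TPM in the PRMT1-OV libraries and at 378, 397 and 368 TPM in the Mock libraries, so every library matched its label (exact two-sided permutation p = 0.1, the smallest that 10 splits allow). PRMT1-OV replicate 2 and Mock replicate 3 lay apart from the other libraries of their groups on the first principal components. The labels call the cells kidney epithelium: KRT8, KRT18 and PAX2 were detected, whereas PAX8, UMOD, AQP2, SLC12A1, SLC12A3 and CUBN were at or near 0, and 8 of 15 kidney markers averaged under 1 TPM. Of the other marker lists, the 7 neuronal genes summed to 488 to 560 TPM in PRMT1-OV and 752 to 841 TPM in Mock, mostly NEFM and NEFL. By the fit described below, 3 of the 6 tested were lower (50%, beside 8.64% of all tested genes). INA and SYP, 2 of the 6, were higher (33.3%, beside 40.3%). The calls of INA and SYP were lost under 7 and 9 of the 18 alternative settings, and that of STMN2, among the lower genes, under 1. The 5 fibroblast genes summed to 9.77 to 10.9 TPM in PRMT1-OV and 12.5 to 17.5 TPM in Mock, nearly all of it COL1A1. The 5 blood cell genes summed to 2.40 to 3.26 TPM in PRMT1-OV and 1.91 to 2.93 TPM in Mock, with CD3E at 0 in all libraries. Their part in the results was not tested. Separate cultures are not stated for the 3 libraries of a group, and the p-values below therefore rest on a library-to-library spread that may be technical. In bulk RNA a change in every cell and a change in a part of the cells cannot be told apart.

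All 39 genes passed the filter of 1 TPM in at least 3 of the 6 libraries, and the lowest value of any of them in any library was 2.18 TPM. On log2(TPM + 1), limma with Benjamini-Hochberg adjustment over the 15341 genes tested found 24 of the 39 higher and 1 lower in PRMT1-OV at an adjusted p under 0.05. The background was high: 40.3% of all tested genes were higher by this rule and 8.64% were lower. Either call was made for 49% of them, and the middle of their log2 fold changes was 0.30. Of the cytosolic synthetases 13 of 19 rose and 1 fell, with a median log2 fold change of 0.52. Of the mitochondrial synthetases 7 of 16 rose and 0 fell, a share of 43.8% that lies near the background, and their median was 0.24. All 4 scaffold and accessory genes rose, with a median of 0.91. With that 0.30 subtracted, these list medians were 0.22, -0.06 and 0.60. The values of the groups did not overlap, with PRMT1-OV above, for 27 of the 39 genes, where 49.8% of all tested genes did so, and with PRMT1-OV below for 2, where 11.6% did so.

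**Figure D1:**
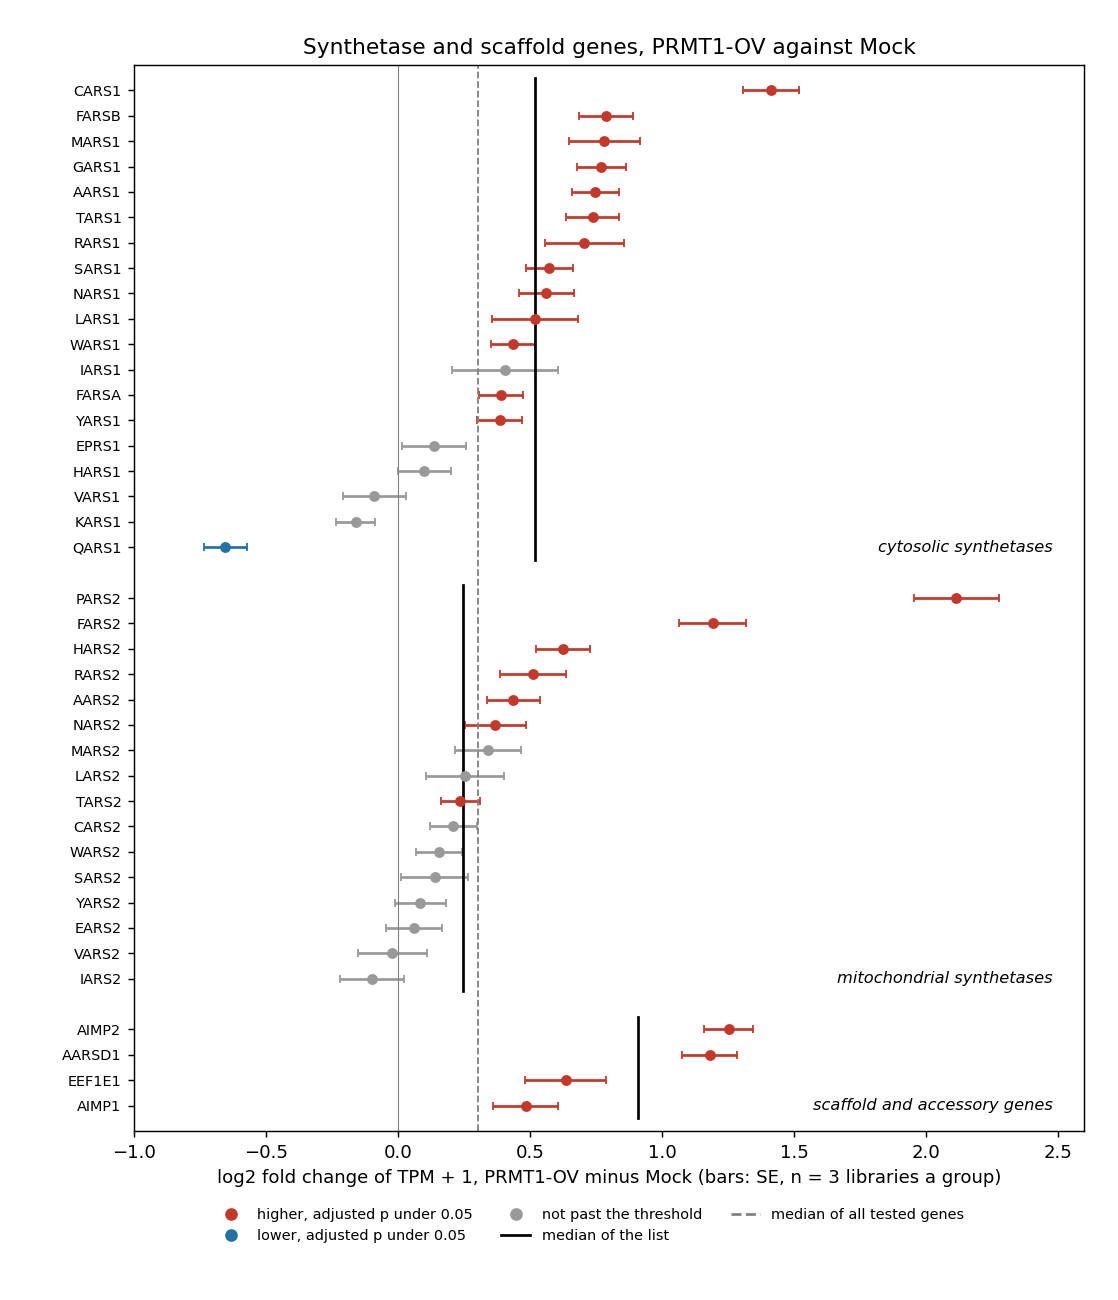
Log2 fold change of TPM + 1, PRMT1-OV minus Mock, for each of the 39 genes (points, with SE as bars, 3 libraries a group), grouped into cytosolic synthetases, mitochondrial synthetases and scaffold or accessory genes. CARS1 leads the cytosolic list at 1.41, PARS2 the mitochondrial list at 2.11 and AIMP2 the scaffold list at 1.25, QARS1 is the only gene in blue, and the median of the mitochondrial list (0.24) lies left of the median of all tested genes (0.30).

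The number of higher genes depended on the scaling. Median-of-ratios scaling moved the median of all tested genes to 0.01, and then 9 cytosolic synthetases were higher and 3 lower, 2 mitochondrial ones higher and 3 lower, and 2 scaffold or accessory genes higher (all tested genes: 3605 higher, 3692 lower). Quantile normalization gave 13 and 1 cytosolic, 2 and 1 mitochondrial, and 3 and 0 scaffold or accessory genes (all tested genes: 3109 higher, 2979 lower). Across TPM as deposited and the 18 alternative settings, the genes higher in every one were AARS1, CARS1, FARSB, GARS1, MARS1, NARS1, RARS1, SARS1 and TARS1 in the cytosol, FARS2 and PARS2 in mitochondria, and AIMP2 and AARSD1. QARS1 was lower in every one.

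**Figure D2:**
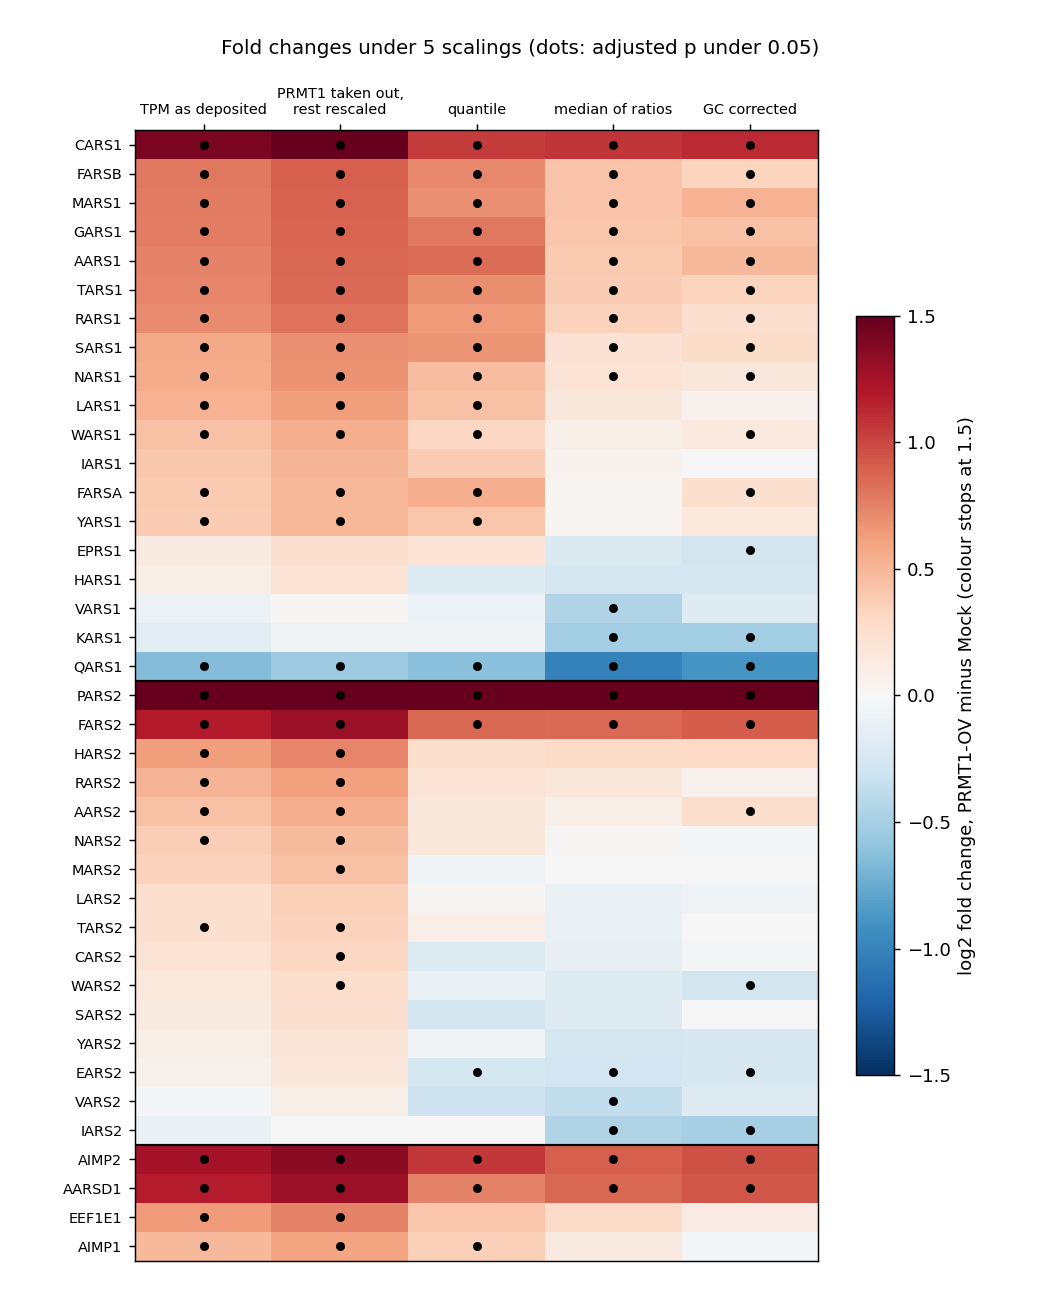
Log2 fold change, PRMT1-OV minus Mock, of each gene (rows, cytosolic above, mitochondrial in the middle, scaffold and accessory below) under 5 scalings (columns), with a dot where the adjusted p is under 0.05; the colour scale stops at 1.5. Under median-of-ratios scaling 9 cytosolic but 2 mitochondrial synthetases keep a dot on the higher side, and 3 of each list carry one on the lower side.

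Promoter sequence was looked at first for the element through which ATF4 and C/EBP factors act together. RefSeq windows from 250 bases before to 50 bases after the start (GRCh38.p14) were at hand for 34 of the 39 genes, 46 windows in all; LARS1, VARS1, YARS1, AARS2 and VARS2 had none. The letters TTGCATCA, searched on both strands (TGATGCAA on the other), occurred in windows of 6 of 16 cytosolic synthetases, 0 of 14 mitochondrial ones and 0 of 4 scaffold or accessory genes. In all, 1.08% of the genes in the reference had such a window, and 0.706% of the tested genes. The matches lie close to the start in 5 of the 6 genes, which is why they are shown side by side, each with 10 bases on either side and the element in capitals. The positions are chr16:70289676-70289703 for AARS1, chr11:3057408-3057435 for CARS1, chr9:92293693-92293720 for IARS1 and chr18:57621805-57621832 for NARS1, all on the minus strand, and chr12:57488054-57488081 for MARS1 and chr5:33440957-33440984 for TARS1 on the plus strand.
AARS1: tttctcgcagTTGCATCAgccaagttag
CARS1: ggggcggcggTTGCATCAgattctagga
IARS1: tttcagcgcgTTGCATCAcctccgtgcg
MARS1: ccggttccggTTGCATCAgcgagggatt
NARS1: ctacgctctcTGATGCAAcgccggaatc
TARS1: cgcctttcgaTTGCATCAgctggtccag

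The first letter of the element lay 187 bases before the start in AARS1, 13 before it in IARS1, 4 before it in MARS1 and 2 before it in CARS1, at base 3 after it in TARS1 and at base 15 after it in NARS1. NARS1 carries the element in the opposite orientation to the other 5. Of these 6 genes, 5 rose in PRMT1-OV, and IARS1 had a log2 fold change of 0.40 that missed the threshold. Among all 19 cytosolic synthetases 13 rose, as did 40.3% of all tested genes. Of the amino acid response genes described below, 2 of 20 with a window held the same letters. These were CHAC1 (log2 fold change 0.43) and SLC1A5 (0.51), both higher, with calls lost under 7 and 1 of the 18 alternatives. Of the genes of the eIF2 sensing step, 1 of 7 with a window held them. That gene, PPP1R15B, was lower (-0.71, limma adjusted p = 0.0053). Any part of the element in these changes was not tested. The looser TTNCATCA, which contains the strict form and occurs in windows of 2.52% of the tested genes, added GARS1 among the cytosolic genes and YARS2 among the mitochondrial ones. A match describes letters in a window and does not show that a factor binds there.

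CARS1, the cysteinyl-tRNA synthetase (chromosome 11, 3000922 to 3057613, minus strand, GRCh38 with GENCODE 29), had the lowest level of the cytosolic list in Mock and the largest rise. It was at 27.2, 30.9 and 28.05 TPM in PRMT1-OV, against 10.6, 10.98 and 8.98 TPM in Mock. The groups lie far apart, and no library of either group approaches the other. The ratio of means was 2.82, and the log2 fold change was 1.41 (limma, SE 0.11, adjusted p = 0.00012). Between 1606 and 1998 recovered reads per PRMT1-OV library and 528 to 664 per Mock library stand behind these values. Under the alternatives its log2 fold change ranged between 1.05 and 1.52.

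The next genes rose by similar amounts. AARS1, the alanyl-tRNA synthetase, was at 286, 301 and 294 TPM in PRMT1-OV and 181, 191 and 153 TPM in Mock (log2 fold change 0.75, SE 0.09, limma adjusted p = 0.00062). GARS1, which loads glycine in the cytosol and, from another start codon, in mitochondria, was at 186, 221 and 182 TPM in PRMT1-OV and 118, 119 and 106 TPM in Mock (0.77, SE 0.09, limma adjusted p = 0.00065). In both genes every PRMT1-OV library lay above every Mock library. TARS1, the threonyl-tRNA synthetase, was at 124, 152 and 122 TPM in PRMT1-OV and 82.3, 81.6 and 73.2 TPM in Mock (0.74, SE 0.10, limma adjusted p = 0.0011). MARS1, the methionyl-tRNA synthetase of the complex, was at 92.1, 92.5 and 94.0 TPM in PRMT1-OV and 57.7, 62.5 and 42.7 TPM in Mock (0.78, SE 0.13, limma adjusted p = 0.0027). The groups were again separate, and for MARS1 the lowest library was Mock replicate 3. MARS1 shares 5.05% of its exonic bases with DDIT3 on the opposite strand, and the strand setting of the counting is not given. DDIT3 fell in PRMT1-OV.

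Phenylalanine is loaded by a tetramer of alpha subunits from FARSA and beta subunits from FARSB, and the genes of both subunits rose. FARSB was at 108, 133 and 104 TPM in PRMT1-OV, against 68.8, 64.7 and 64.6 TPM in Mock (log2 fold change 0.79, SE 0.10, limma adjusted p = 0.00086). FARSA was at 384, 351 and 406 TPM in PRMT1-OV, against 297, 309 and 264 TPM in Mock (0.39, SE 0.08, limma adjusted p = 0.0071). The groups did not overlap in either gene, but FARSA lost the call under median-of-ratios scaling, where its log2 fold change was 0.03. FARSA had the highest level of the cytosolic list in PRMT1-OV, while in Mock its libraries overlapped those of KARS1.

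QARS1, the glutaminyl-tRNA synthetase (chromosome 3, 49095932 to 49105135, minus strand), fell. It was at 127, 122 and 132 TPM in PRMT1-OV, against 206, 215 and 181 TPM in Mock. Every PRMT1-OV library lay well below every Mock library. The ratio of means was 0.632, and the log2 fold change was -0.65 (limma, SE 0.08, adjusted p = 0.00076), ranging between -1.01 and -0.55 over the alternatives. KARS1, the lysyl-tRNA synthetase of both compartments and, like QARS1, a member of the complex, was at 249, 279 and 238 TPM in PRMT1-OV and 290.3, 282 and 283 TPM in Mock. Its groups did not overlap, but its log2 fold change of -0.16 missed the threshold (limma adjusted p = 0.11). KARS1 was called lower under 5 of the 18 alternatives, median-of-ratios scaling (-0.52) and the omission of PRMT1-OV replicate 2 (-0.23, limma adjusted p = 0.021) among them.

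The remaining cytosolic enzymes split between modest rises and genes that did not pass. RARS1, the arginyl-tRNA synthetase of the complex, was at 109, 134 and 93.7 TPM in PRMT1-OV and 74.6, 71.9 and 57.7 TPM in Mock (log2 fold change 0.71, SE 0.15, limma adjusted p = 0.0064). SARS1 (serine) was at 278, 302 and 285 TPM in PRMT1-OV and 209, 202 and 171 TPM in Mock (0.57, limma adjusted p = 0.0017). NARS1 (asparagine) was at 86.6, 100.4 and 81.3 TPM in PRMT1-OV and 62.8, 63.7 and 54.0 TPM in Mock (0.56, limma adjusted p = 0.0038). Each of these had all PRMT1-OV libraries above all Mock libraries. LARS1 (leucine, 0.52), WARS1 (tryptophan, 0.44) and YARS1 (tyrosine, 0.38) also rose, as log2 fold changes. LARS1 lost the call under 6 of the 18 alternatives, among them without PRMT1-OV replicate 1 (0.58, limma adjusted p = 0.051) and without PRMT1-OV replicate 2 (0.41, limma adjusted p = 0.10), YARS1 under 2 and WARS1 under 1. WARS1 shares 4.51% of its exonic bases with WDR25, and YARS1 shares 4.82% with S100PBP, both on the opposite strand and both higher in PRMT1-OV (1.21 and 1.33). IARS1 (isoleucine) was at 131, 161 and 126 TPM in PRMT1-OV and 116, 130.3 and 74.4 TPM in Mock, so its groups overlapped and its log2 fold change of 0.40 had an adjusted p of 0.13 in limma. EPRS1, which loads both glutamate and proline, had a log2 fold change of 0.14, HARS1 (histidine) of 0.10 and VARS1 (valine) of -0.09, and their groups overlapped. EPRS1 and HARS1 turned in direction under median-of-ratios scaling (-0.22 and -0.25), without a call. VARS1 was called lower without Mock replicate 3 (-0.23, limma adjusted p = 0.025) and under 3 other settings, and EPRS1 was called lower after the GC correction (-0.27).

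Split by place in the cell, the free cytosolic enzymes had 10 of 12 higher and 0 lower, with a median log2 fold change of 0.57. The multisynthetase complex, 7 enzymes and 3 scaffold genes, had 6 of 10 higher and 1 lower, with a median of 0.50. Among all tested genes 40.3% were higher and 8.64% lower, with a median of 0.30. Under median-of-ratios scaling the free enzymes had 7 higher and 1 lower and the complex 3 higher and 2 lower. All tested genes then had 3605 higher and 3692 lower. Split by known link to ATF4, the 12 linked enzymes had 10 higher (83.3%) and 0 lower, with a median of 0.57. The other 7 had 3 higher (42.9%) and 1 lower (14.3%), with a median of 0.10. Under median-of-ratios scaling the linked enzymes had 7 higher and 0 lower and the other 7 had 2 higher and 3 lower. The summed level of the linked enzymes was 1740, 1972 and 1740 TPM in PRMT1-OV and 1319, 1342 and 1068 TPM in Mock. The summed level of the other 7 was 1145, 1185 and 1149 TPM in PRMT1-OV and 1128, 1134 and 1002 TPM in Mock. The PRMT1-OV sums lay above the Mock sums in both lists, by a ratio of means of 1.46 for the linked enzymes and, by a very narrow gap, of 1.07 for the other 7. These lists were chosen with earlier results of these data known, so the split is not independent of the values. The difference between the lists was described and not tested.

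**Figure D3:**
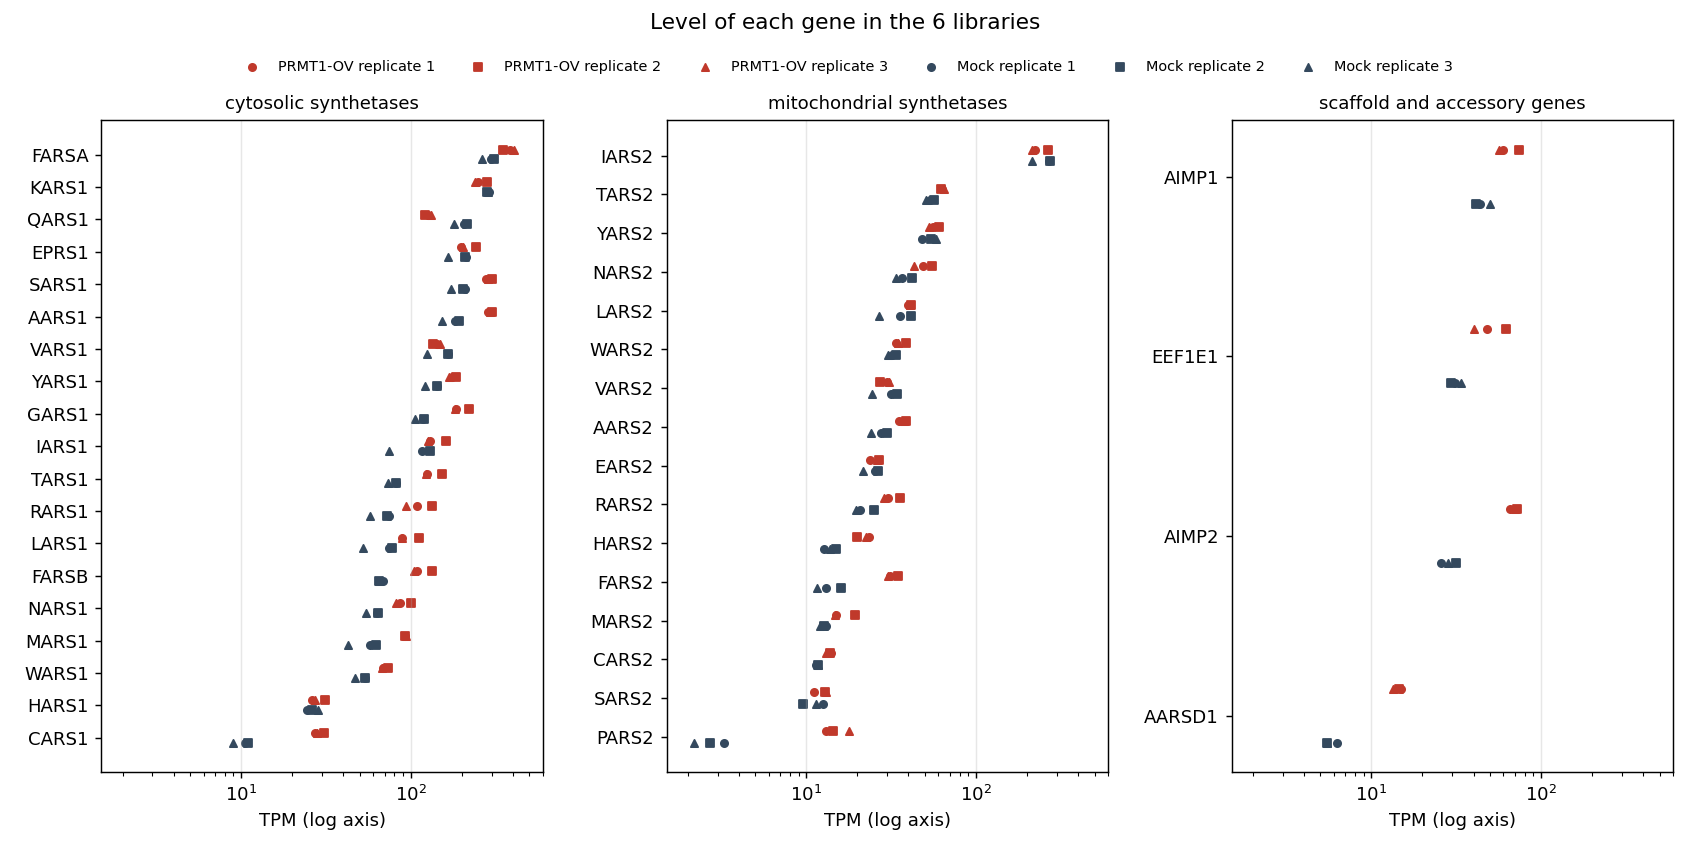
TPM of each gene in every library on a log axis, PRMT1-OV in red above Mock in blue-grey, ordered within each panel by the mean level in Mock. CARS1 and PARS2, the lowest genes of their lists in Mock at 10.2 and 2.72 TPM, show the widest gaps between groups, and QARS1 is the clearest case of PRMT1-OV values left of Mock values.

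All 3 scaffold genes rose. AIMP2 (chromosome 7, 6009245 to 6023834, plus strand), which binds many members of the complex, was at 65.2, 72.2 and 70.0 TPM in PRMT1-OV, against 25.8, 31.4 and 28.3 TPM in Mock. The groups were far apart, with a log2 fold change of 1.25 (limma, SE 0.09, adjusted p = 0.00012). AIMP2 shares 28.9% of its exonic bases with the gene of the eIF2 kinase EIF2AK1 on the opposite strand. EIF2AK1 averaged 90.9 ± 3.68 TPM in PRMT1-OV and 94.5 ± 3.07 TPM in Mock (SD, n = 3 each), with a log2 fold change of -0.06 that did not pass. EEF1E1 was at 47.7, 62.5 and 40.1 TPM in PRMT1-OV and 31.3, 29.4 and 33.6 TPM in Mock (0.63, SE 0.15, limma adjusted p = 0.011). AIMP1, also the precursor of a secreted cytokine, was at 59.3, 74.5 and 56.8 TPM in PRMT1-OV and 43.8, 41.3 and 49.8 TPM in Mock (0.48, SE 0.12, limma adjusted p = 0.014). In both genes PRMT1-OV replicate 2 was the highest library, no Mock library reached a PRMT1-OV library, and the call was lost under median-of-ratios scaling and the GC correction (that of EEF1E1 under quantile normalization too). AIMP1 had no fixed direction, with -0.03 after the GC correction. Readthrough and antisense partners share 18.7% of the exonic bases of EEF1E1 (EEF1E1-BLOC1S5, same strand) and 11.6% of those of AIMP1 (TBCK, opposite strand). The summed TPM of the 3 scaffold genes was 183 ± 23.0 in PRMT1-OV and 105 ± 5.95 in Mock (SD, n = 3 each).

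AARSD1, a protein that resembles the editing domain of alanyl-tRNA synthetase and clears wrongly loaded tRNA (chromosome 17, 42950526 to 42964498, minus strand), was at 14.9, 14.5 and 13.4 TPM in PRMT1-OV, against 6.25, 5.48 and 5.48 TPM in Mock. The groups were separate by a wide margin, with a log2 fold change of 1.18 (limma, SE 0.10, adjusted p = 0.00020). Its level is uncertain to some degree, because the readthrough gene PTGES3L-AARSD1 covers 34.2% of its exonic bases on the same strand and the pseudogene AARSD1P1 resembles it. AARSD1P1 was at 1.94, 2.49 and 1.93 TPM in PRMT1-OV and at 0.135, 0.284 and 0.722 TPM in Mock.

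Among mitochondrial enzymes PARS2, the prolyl-tRNA synthetase (chromosome 1, 54756898 to 54764514, minus strand), had the largest change of all 39 genes. It was at 13.1, 14.3 and 17.9 TPM in PRMT1-OV, against 3.27, 2.72 and 2.18 TPM in Mock. The lowest PRMT1-OV library is several times the highest Mock library. The ratio of means was 5.56, and the log2 fold change was 2.11 (limma, SE 0.16, adjusted p = 0.00013), between 1.38 and 2.44 over the alternatives. Depth is thin on the Mock side, with 30 to 48 recovered reads per library, against 201 to 240 in PRMT1-OV. FARS2, the mitochondrial phenylalanyl-tRNA synthetase (chromosome 6, 5261044 to 5829192, plus strand), was at 31.2, 34.8 and 30.1 TPM in PRMT1-OV and 13.1, 15.99 and 11.5 TPM in Mock (1.19, SE 0.13, limma adjusted p = 0.00039). Its groups were also well separated.

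The PARS2 promoter is shown because no other of the 39 genes changed as much. The window runs 250 bases up to the start and 13 bases into the transcript, at chr1:54764511-54764773 on the minus strand of GRCh38.p14 (RefSeq), with a match to the NRF1 motif in capitals. NRF1 is a transcription factor of many nuclear genes for mitochondrial proteins.
PARS2: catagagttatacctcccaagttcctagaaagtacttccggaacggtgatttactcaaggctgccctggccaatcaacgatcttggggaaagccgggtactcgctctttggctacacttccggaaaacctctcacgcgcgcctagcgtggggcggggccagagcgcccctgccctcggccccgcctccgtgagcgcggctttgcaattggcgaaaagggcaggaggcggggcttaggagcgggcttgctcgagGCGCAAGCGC

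The NRF1 motif, searched on both strands, occurs in windows of 13.7% of the tested genes. It was found in 8 of the 34 genes with a window, namely PARS2, IARS2 and MARS2 of the mitochondrial list, FARSB, SARS1 and TARS1 of the cytosolic list, and AIMP2 and AARSD1. The other 6 genes with it rose, and IARS2 and MARS2 did not pass the test. Of all 39 genes 24 rose, as did 40.3% of all tested genes, and a link to the motif was not tested. The windows of AIMP2 (chr7:6009516-6009545, plus strand) and AARSD1 (chr17:42964451-42964480, minus strand), the scaffold and accessory genes with the largest rise, hold it as follows.
AIMP2: cccgcccagtGCGCACGCGCggcgaccggc
AARSD1: aggcttctctGCGCGTGCGCctcctcacac

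The E-box CACGTG, the same on both strands and present in windows of 12.8% of the tested genes, was found in CARS2, EARS2 and MARS2 of the mitochondrial list, in IARS1 and in AIMP2.

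The other mitochondrial rises were smaller. HARS2 (histidine) was at 23.3, 20.03 and 22.4 TPM in PRMT1-OV and 12.8, 15.015 and 13.8 TPM in Mock (log2 fold change 0.62, SE 0.10, limma adjusted p = 0.0022). RARS2 (arginine) was at 30.4, 35.8 and 28.6 TPM in PRMT1-OV and 20.8, 25.1 and 19.7 TPM in Mock (0.51, SE 0.12, limma adjusted p = 0.012). AARS2 (alanine) was at 35.2, 38.4 and 37.6 TPM in PRMT1-OV and 27.7, 29.9 and 24.0 TPM in Mock (0.44, SE 0.10, limma adjusted p = 0.0091). In all of these no Mock library reached a PRMT1-OV library. NARS2 (asparagine) was at 48.6, 54.7 and 43.3 TPM in PRMT1-OV and 36.9, 42.0 and 33.9 TPM in Mock (0.37, SE 0.12, limma adjusted p = 0.032). TARS2 (threonine) was at 62.8, 61.9 and 64.8 TPM in PRMT1-OV and 53.8, 56.4 and 50.4 TPM in Mock (0.24, SE 0.07, limma adjusted p = 0.032). For NARS2 and TARS2 the groups were separate by a narrow gap only. All of these calls were lost under median-of-ratios scaling and quantile normalization; NARS2 was no longer called under 10 of the 18 alternatives and TARS2 under 8, and their directions turned under the GC correction, to -0.03 and -0.01. Omission of PRMT1-OV replicate 1 or 2 or Mock replicate 1 or 3 (limma adjusted p = 0.078 to 0.087) ended the call for NARS2, and omission of PRMT1-OV replicate 1 or 3 or Mock replicate 1 (limma adjusted p = 0.090 to 0.096) that for TARS2. TARS2 also turned under median-of-ratios scaling, to -0.12.

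HARS2 lies head to head with HARS1, its cytosolic counterpart, on chromosome 5, and they share 437 exonic bases on opposite strands, 11.7% of those of HARS2. HARS2 also shares 152 exonic bases, 4.07% of its own, with ZMAT2 on the same strand. ZMAT2 averaged 182 ± 4.59 TPM in PRMT1-OV and 163 ± 22.1 TPM in Mock (SD, n = 3 each). Its log2 fold change of 0.17 did not pass. HARS1 was at 26.1, 31.2 and 27.3 TPM in PRMT1-OV and 24.4, 26.1 and 28.2 TPM in Mock. The groups of HARS1 overlap, whereas those of HARS2 do not.

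The 9 mitochondrial enzymes that did not pass had log2 fold changes between -0.10 (IARS2, isoleucine) and 0.34 (MARS2, methionine, limma adjusted p = 0.054). IARS2 was by far the most abundant mitochondrial enzyme, at 223, 266 and 215 TPM in PRMT1-OV and 268, 274 and 214 TPM in Mock, and its groups overlapped. It was called lower under 4 of the 18 alternatives, among them median-of-ratios scaling (-0.45, limma adjusted p = 0.0030) and the omission of both libraries that stand apart (-0.31). VARS2 (valine, -0.02), EARS2 (glutamate, 0.06), YARS2 (tyrosine, 0.08), SARS2 (serine, 0.14), WARS2 (tryptophan, 0.15), CARS2 (cysteine, 0.21) and LARS2 (leucine, 0.25) stood between them. The direction of EARS2 turned under median-of-ratios scaling (-0.28), quantile normalization (-0.26) and the GC correction (-0.24), under each of which it was called lower, and WARS2 was called lower after the GC correction (-0.27) and higher when PRMT1 was taken out before rescaling (0.26). VARS2 was called lower under median-of-ratios scaling (-0.37). Under that scaling CARS2, LARS2, SARS2, WARS2 and YARS2 also turned in direction, and under quantile normalization CARS2, MARS2, SARS2, WARS2 and YARS2 did, without a call. VARS2 shares 22% of its exonic bases with GTF2H4 on the same strand, and SARS2 shares 10.8% with MRPS12 on the opposite strand.

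By level in PRMT1-OV, FARSA stood first in the cytosolic list at 380.1 ± 27.5 TPM, AARS1 at 294 ± 7.10 and SARS1 at 289 ± 12.4 overlapped each other below it, and QARS1 stood at 127 ± 4.97 (SD, n = 3 each). In Mock, the list ran down through FARSA (290.1 TPM), KARS1 (285), QARS1 (201), EPRS1 (195), SARS1 (194) and AARS1 (175) to HARS1 (26.2) and CARS1 (10.2). FARSA and KARS1 overlapped in their Mock libraries, as did neighbours among QARS1, EPRS1, SARS1 and AARS1, so these cannot be ordered. In the mitochondrial list PARS2, at 15.1 ± 2.51 TPM in PRMT1-OV, overlapped in its libraries with CARS2 at 13.6 ± 0.44 and SARS2 at 12.4 ± 1.12 (SD, n = 3 each), so these 3 cannot be ordered. In Mock that list ran down through IARS2 (252 TPM), TARS2 (53.5) and YARS2 (53.4), which overlap, to SARS2 (11.2) and PARS2 (2.72). Orders between genes depend on the exonic length used for TPM, 10037 bases for CARS1 and 7853 for HARS1 against 2435 for FARSA.

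Set against each other, the enzymes of the same amino acid moved unequally. The log2 ratio of TPM + 1 of CARS1 over CARS2 was 0.92, 1.11 and 1.05 in PRMT1-OV, against -0.10, -0.09 and -0.34 in Mock. Cysteine thus had more transcript for the cytosolic enzyme in every PRMT1-OV library and more for the mitochondrial enzyme in every Mock library. Of 16 pairs, the ratio was higher on average in PRMT1-OV for 12 and lower for 4. The groups did not overlap for 9 pairs with PRMT1-OV above and for 3 with PRMT1-OV below. Those 3 were EPRS1 over PARS2, at 3.74 ± 0.29 in PRMT1-OV and 5.72 ± 0.09 in Mock, FARSA over FARS2, at 3.53 ± 0.21 and 4.33 ± 0.12, and HARS1 over HARS2, at 0.35 ± 0.24 and 0.87 ± 0.11 (SD, n = 3 each). In each of these pairs the mitochondrial gene rose. In 14 pairs the cytosolic gene had the higher level in all 6 libraries, the exceptions being cysteine and isoleucine, and IARS1 lay below IARS2 in all 6. TPM divides reads by exonic length, 7401 bases for IARS1 and 4165 for IARS2. Recovered reads were 5316 to 7658 for IARS1 and 5108 to 7144 for IARS2 in PRMT1-OV. In Mock they were 3228 to 5749 for IARS1 and 5213 to 6999 for IARS2.

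**Figure D4:**
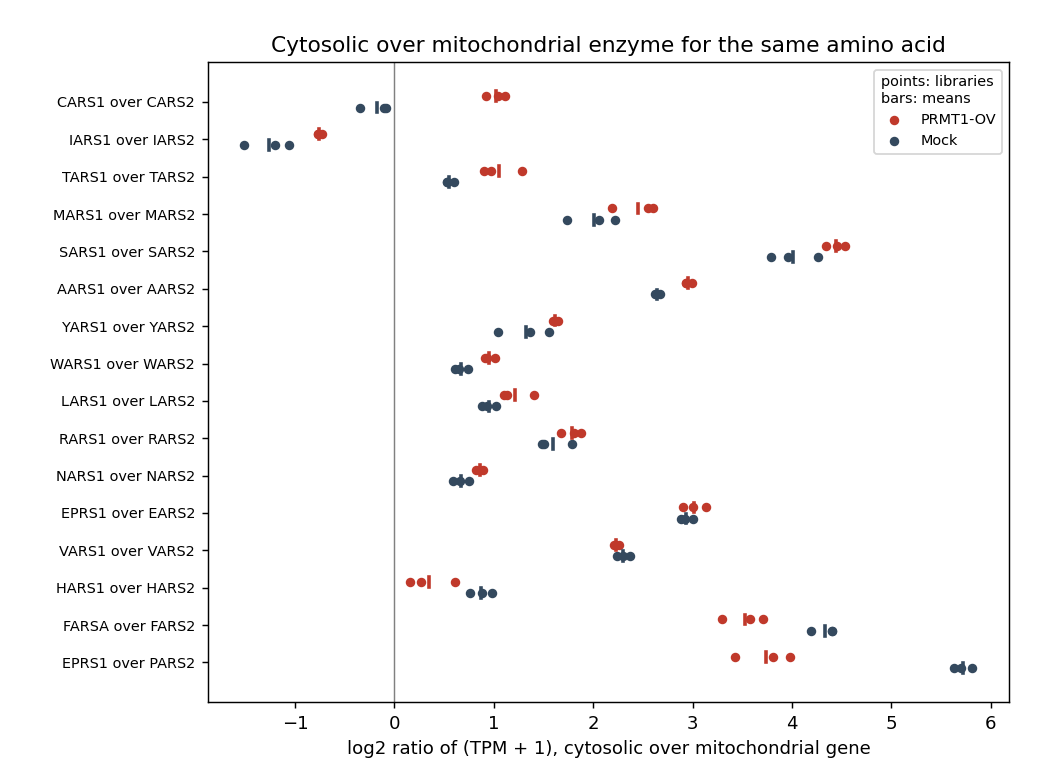
Log2 ratio of TPM + 1, cytosolic over mitochondrial gene, for 16 pairs that load the same amino acid, in the 3 PRMT1-OV libraries (red) and the 3 Mock libraries (blue-grey), with bars at the means; EPRS1 appears in a pair for glutamate and a pair for proline. CARS1 over CARS2 lies near 1 in PRMT1-OV and below 0 in Mock, and the lowest rows, HARS1, FARSA and EPRS1 over PARS2, have PRMT1-OV left of Mock.

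Summed over each list, the cytosolic enzymes reached 2885, 3157 and 2888 TPM in PRMT1-OV and 2446, 2477 and 2071 TPM in Mock. The mitochondrial enzymes reached 691, 767 and 686 TPM in PRMT1-OV and 646, 685 and 565 TPM in Mock. The cytosolic sums were separate between the groups, and so, by a very narrow gap, were the mitochondrial ones. The ratio of these sums within a library, which a scaling factor of the library cannot move, was 4.17, 4.12 and 4.21 in PRMT1-OV and 3.79, 3.62 and 3.66 in Mock. Without GARS1 and KARS1, whose products serve both compartments, it was 3.54 ± 0.07 in PRMT1-OV and 3.05 ± 0.09 in Mock (SD, n = 3 each). The ratio rests on IARS2, which made up 32.8 ± 1.74% of the mitochondrial sum in PRMT1-OV and 39.8 ± 1.88% in Mock (SD, n = 3 each). Without IARS2, an omission chosen after seeing the data, the ratio was 6.17, 6.31 and 6.13 in PRMT1-OV and 6.48, 6.02 and 5.89 in Mock, and the groups overlapped. The difference between the median log2 fold changes of the cytosolic and the mitochondrial list was 0.27. It was 0.17 without Mock replicate 3, and 0.18 without both libraries that stand apart. Without both of those libraries 13 cytosolic genes were higher and 3 lower, 6 mitochondrial genes higher and 1 lower, and all 4 scaffold and accessory genes higher. Of all tested genes 5703 were then higher and 2115 lower.

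Base composition moved with the changes over all tested genes. The decile of lowest GC content had a median change of 0.48 on the log2 scale, and the decile of highest GC content had 0.04. Within the 39 genes, Spearman's rho of the log2 fold change was -0.15 with GC content and -0.29 with the level in Mock, across genes of the same libraries and given as a description. After a correction for GC content, 11 cytosolic genes were higher and 3 lower, 3 mitochondrial genes higher and 3 lower, and 2 scaffold or accessory genes higher. Of all tested genes 3613 were then higher and 3878 lower.

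The amino acid response genes outside the synthetases, a list of known ATF4 targets and partners, gave a divided picture. Of 25 genes 14 were higher (56%, beside 40.3% of all tested genes) and 7 were lower (28%, beside 8.64%). Their median log2 fold change was 0.41, beside 0.30. Under median-of-ratios scaling 6 were higher and 9 lower, with a median of 0.06, beside 3605 higher and 3692 lower of all tested genes. After the GC correction 10 were higher and 9 lower, with a median of 0.07, beside 3613 higher and 3878 lower of all tested genes. CTH, which makes cysteine from cystathionine, was at 37.4, 39.7 and 30.4 TPM in PRMT1-OV and 9.20, 10.3 and 8.91 TPM in Mock (1.81, SE 0.12, limma adjusted p = 9.1e-05). SLC3A2, the heavy chain of amino acid exchangers, was at 190, 184 and 189 TPM in PRMT1-OV and 106, 112 and 108 TPM in Mock (0.78, SE 0.06, limma adjusted p = 0.00014). Both stood well clear of Mock in every library. TRIB3, a pseudokinase that restrains ATF4, was at 22.9, 26.1 and 22.6 TPM in PRMT1-OV and 10.98, 11.3 and 10.9 TPM in Mock (1.04, SE 0.09, limma adjusted p = 0.00022). ASNS, the asparagine synthetase, was at 141, 160 and 125 TPM in PRMT1-OV and 84.9, 82.9 and 83.2 TPM in Mock (0.75, SE 0.09, limma adjusted p = 0.00075). These 4 genes were higher under every alternative.

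ATF4 moved little, and other stress genes of the list moved in both directions. SESN2 (0.65, limma adjusted p = 0.011) and CHAC1 (0.43, limma adjusted p = 0.035) were higher, with calls lost under 1 and 7 of the 18 alternatives. ATF4 was at 751, 744 and 755 TPM in PRMT1-OV and 629, 666 and 688 TPM in Mock, a log2 fold change of 0.18 (limma, SE 0.06, adjusted p = 0.030). That call was lost under 9 of the 18 alternatives, the omission of PRMT1-OV replicate 1 or 3 or Mock replicate 1 or 2 among them (limma adjusted p = 0.072 to 0.13), and the direction turned under median-of-ratios scaling (-0.17) and the GC correction (-0.03). DDIT3, which encodes the pro-apoptotic factor CHOP, was at 57.3, 71.9 and 60.0 TPM in PRMT1-OV and 98.1, 99.7 and 110.4 TPM in Mock (-0.70, SE 0.10, limma adjusted p = 0.0014), lower under every alternative. DDIT4, CEBPB, ATF3 and the mitochondrial serine enzyme SHMT2 were also lower, by -0.44, -0.43, -0.24 and -0.44, and PYCR1 and ALDH18A1 of proline synthesis by -0.20 and -0.28. CEBPB and SHMT2 stayed lower under every alternative, and DDIT4 under all but quantile normalization. The calls of ATF3, PYCR1 and ALDH18A1 were each lost under 8 of the 18 alternatives, the omission of PRMT1-OV replicate 1 or 3 or Mock replicate 1 or 2 among them (limma adjusted p = 0.097 to 0.13). ATF4 is controlled mainly at translation, which these data do not measure.

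**Figure D5:**
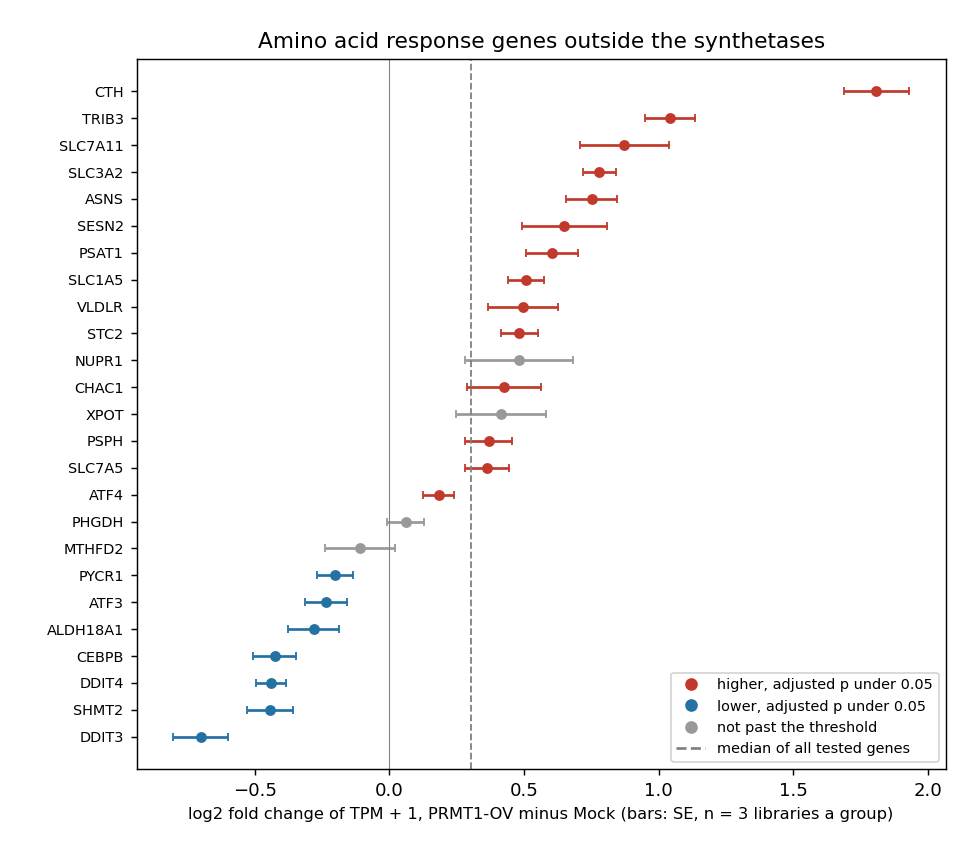
Log2 fold change of TPM + 1, PRMT1-OV minus Mock, of the 25 amino acid response genes outside the synthetases (points, with SE as bars, 3 libraries a group) and the median of all tested genes (dashed). CTH is highest at 1.81 and DDIT3 lowest at -0.70, with 14 genes in red, 7 in blue and 4 in grey.

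Of the 8 genes of the eIF2 sensing step, 2 were higher (25%, beside 40.3% of all tested genes) and 1 lower (12.5%, beside 8.64%). Their median log2 fold change was 0.04, beside 0.30. Under median-of-ratios scaling 1 was higher and 4 were lower (median -0.31), beside 3605 higher and 3692 lower of all tested genes. After the GC correction 2 were higher and 4 lower (median -0.26), beside 3613 higher and 3878 lower. EIF2S1, the subunit of eIF2 that is phosphorylated, was at 57.9, 73.3 and 51.3 TPM in PRMT1-OV and 33.4, 35.0 and 31.4 TPM in Mock (0.84, SE 0.13, limma adjusted p = 0.0018). PPP1R15B, a phosphatase subunit that reverses this mark, was at 33.6, 39.9 and 32.3 TPM in PRMT1-OV and 61.9, 66.6 and 47.1 TPM in Mock (-0.71, SE 0.14, limma adjusted p = 0.0053). The groups of each gene were separate. EIF2B5 rose by 0.59 (limma adjusted p = 0.0088), a call lost under median-of-ratios scaling and quantile normalization, and GCN2 itself (EIF2AK4) had a log2 fold change of -0.05 that did not pass.

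Downstream of charging, 6 of the 14 tested genes of cytosolic tRNA delivery and quality control were higher, 42.9% beside the 40.3% of all tested genes. Lower were 4 of the 14, 28.6% beside the 8.64% of all tested genes. Median-of-ratios scaling gave 4 higher and 6 lower, beside 3605 higher and 3692 lower of all tested genes. The GC correction gave 3 higher and 7 lower, beside 3613 higher and 3878 lower. The elongation factor EEFSEC, which delivers selenocysteyl-tRNA, was at 54.0, 52.9 and 56.0 TPM in PRMT1-OV and 21.6, 20.2 and 25.2 TPM in Mock (1.25, SE 0.10, limma adjusted p = 0.00014). The peptidyl-tRNA hydrolase PTRH2 was at 11.5, 12.1 and 11.6 TPM in PRMT1-OV and 4.72, 5.42 and 5.58 TPM in Mock (1.03, SE 0.11, limma adjusted p = 0.00034). Both were clear of Mock in every library, and the deacylase DTD2 (0.86) and PSTK (0.83), the kinase that acts before selenocysteine is formed, also rose, PSTK with calls lost under quantile normalization and the GC correction. EEF1D, an exchange factor of the main delivery factor, was at 60.0, 65.9 and 66.0 TPM in PRMT1-OV and 83.0, 91.0 and 81.5 TPM in Mock (-0.41, SE 0.08, limma adjusted p = 0.0044), and its groups were separate. EEF1A1, the main delivery factor, averaged 5577 ± 22.7 TPM in PRMT1-OV and 6865 ± 808 TPM in Mock (SD, n = 3 each; -0.29, limma adjusted p = 0.024). That call was lost under 9 of the 18 alternatives, the omission of any PRMT1-OV library (limma adjusted p = 0.056 to 0.068) or of Mock replicate 1 or 2 among them, and quantile normalization turned its direction (0.03). TARS3 had a log2 fold change of 0.05 that did not pass, and was called lower after the GC correction (-0.33).

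In mitochondria, 6 of 13 genes of tRNA delivery were higher, 46.2% beside the 40.3% of all tested genes. Lower was 1 of the 13, 7.69% beside 8.64%, and the median was 0.29 beside 0.30. Median-of-ratios scaling gave 3 higher and 3 lower, beside 3605 higher and 3692 lower of all tested genes. The GC correction gave 2 higher and 4 lower, beside 3613 higher and 3878 lower. PTCD1, a tRNA-binding protein, was at 4.95, 6.01 and 5.98 TPM in PRMT1-OV and 1.38, 1.73 and 2.76 TPM in Mock (1.19, SE 0.19, limma adjusted p = 0.0020). TRMU, which thiolates mitochondrial tRNAs, was at 9.55, 10.3 and 9.51 TPM in PRMT1-OV and 4.59, 3.94 and 4.50 TPM in Mock (1.02, SE 0.11, limma adjusted p = 0.00040). The groups were separate for both. The delivery factor TUFM was lower, at 889, 803 and 924 TPM in PRMT1-OV and 1177, 1229 and 1158 TPM in Mock (-0.45, SE 0.07, limma adjusted p = 0.0016), while its exchange factor TSFM was higher (0.43, limma adjusted p = 0.0031). The TUFM call was lost under quantile normalization, and that of TSFM under median-of-ratios scaling, quantile normalization and the GC correction.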

How the data were processed

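The 6 libraries of HEK293T RNA were made, per the labels' protocols, from polyA-selected and fragmented RNA with random primers. The authors deposited TPM per Ensembl gene, and each column sums to 1000000. STAR 2.5.2b, Trimmomatic 0.36, Subread 1.5.2, featureCounts and the build GRCh38 are listed in the submitters' processing notes; annotation, strand setting and the step to TPM are not given there. Groups and replicate numbers came from the labels. Symbols were matched through a table of gene names with 56410 of the 57500 identifiers, and all 39 genes were found. Coordinates and exonic lengths came from GENCODE 29, in which 56898 identifiers occur and which need not be the release the authors used. Multiplied by exonic length, 95.5 to 95.9% of low TPM values (under 50 reads) came out within 0.05 of a whole number of reads, where chance gives 10%; this gave the reads quoted. For a gene of 1 kb, 3 reads equal 0.459 to 0.526 TPM, a floor that covers counting error alone.

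A gene was tested if it reached 1 TPM or more in 3 or more libraries. Values of log2(TPM + 1) were fitted in R 4.3.3 by limma 3.58.1 (lmFit, then eBayes with a variance trend), with Benjamini-Hochberg adjustment over all genes tested and a threshold of 0.05. Such fold changes understate those of low genes. The fit was tested on simulated data with known changes. Genes given with every library were, by rule, up to 6 called genes with the largest absolute fold change in each of the 3 lists, any called against most of its list, and up to 4 with the smallest p in each related list; RARS1, SARS1, NARS1, FARSA, HARS1, KARS1, IARS1, IARS2, TARS2, ATF4, DDIT3, EEF1D and, as means, EEF1A1 were added with their values known. The members and lists were chosen with earlier results of these data known. Alternatives were other pseudocounts (0.1 and 5 TPM), no filter or a filter at 5 TPM, quantile normalization, median-of-ratios scaling, removal of PRMT1 before rescaling, no variance trend, array weights, a replicate block, each library left out, both libraries that stand apart left out, and a loess correction for GC content; the sum ratio without IARS2 was added after seeing the data. RefSeq promoter windows were searched for 4 motifs.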

Additional observations from a re-analysis of the deposited data

How the results depend on the processing

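Of the 39 genes, 13 stayed higher and 1 lower under all 18 alternatives. Median-of-ratios scaling gave 3605 genes higher and 3692 lower of all tested, 3 cytosolic synthetases lower, 2 mitochondrial ones higher and 3 lower, and 2 scaffold or accessory genes higher. Quantile normalization gave 3109 higher and 2979 lower of all tested, 2 mitochondrial higher and 1 lower, and 0.46 for the cytosolic minus mitochondrial median (0.27 as reported). Rescaling without PRMT1 left 880 of all tested lower. Array weights gave 2838 lower, 3 cytosolic and 1 mitochondrial lower, and a difference of 0.16. Leaving out both libraries that stand apart gave 2115 lower, 3 cytosolic and 1 mitochondrial lower, and 0.18. The GC correction gave 3613 higher and 3878 lower, 3 cytosolic lower, 3 mitochondrial higher and 3 lower, 2 scaffold or accessory genes higher, and 0.19. Leaving out 1 library gave 935 to 1520 of all tested lower, 1 to 2 cytosolic lower and a difference of 0.17 to 0.33. Without GARS1 and KARS1 the ratio of summed levels in PRMT1-OV was 1.16-fold that in Mock, against 1.13-fold with them, and without IARS2 it was 1.01-fold, also without IARS1 and IARS2 (1.01), both chosen after seeing the data. With a call in either setting, directions turned for EARS2 (-0.28) and TARS2 (-0.12) under median-of-ratios scaling, for EARS2 (-0.26) under quantile normalization, and for EPRS1 (-0.27), EARS2 (-0.24), NARS2 (-0.028), TARS2 (-0.0064), WARS2 (-0.27) and AIMP1 (-0.032) under the GC correction. Without a call in either, 7, 6 and 4 further genes turned under these 3 settings, 3 each with array weights and without PRMT1, 2 without both libraries that stand apart, and 1 each under 4 single-library omissions. The causes were not tested. Same-numbered libraries did not deviate together (r = -0.03, 0.06 and 0.02). With 3 libraries a group this cannot decide whether the numbers pair them, and the main fit used no pairing. With the replicate block 14 cytosolic, 6 mitochondrial and 4 scaffold or accessory genes were higher, beside 6275 of all tested genes. IARS1 then passed (limma adjusted p = 0.031) and TARS2 did not (limma adjusted p = 0.060).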
